A study of Mus musculus with 12 samples.

Results

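The 10 genes described here encode the core of the TGF-β and activin pathway: the ligand gene Tgfb1, the activin subunit gene Inhba, the receptor genes Tgfbr1 and Tgfbr2, the signal transducer genes Smad2, Smad3 and Smad4, the inhibitor genes Smad7 and Ski, and the target gene Tgfbi. They were taken by symbol from the table of 12850 genes, all 10 were listed, and all 10 were among the 11885 genes that passed the filter on low values. The cells were thioglycollate-elicited peritoneal exudate cells (PECs), collected 3.5 days after injection of 2 ml of 4% thioglycollate into the peritoneal cavity, a procedure that draws mainly macrophages. They came from C57BL/6 mice that were either WT or homozygous for the knock-in allele Zc3h12aS513A/S513A (S513A), in which 1 serine of the RNA-degrading protein Regnase-1 is replaced by alanine. PECs of each genotype were left unstimulated (0 hr) or stimulated with 100 ng/ml LPS, a ligand of TLR4, for 4 or 8 hr, and polyA RNA of 2 libraries per group was sequenced, 12 libraries in all. The knock-in was made by CRISPR/Cas9 in fertilized C57BL/6J eggs, while the study's list of materials gives the WT mice as C57BL/6JJcl from CLEA Japan. Whether the 2 libraries of a group came from separate mice is not given in the sources used here, so p-values measure the spread between these libraries, which may be technical. Ages, and whether WT and mutant mice were littermates, are likewise not given in the sources used here.

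TGF-β1 is secreted in a latent form and, once released, binds the type II receptor TGFBR2, which phosphorylates the type I receptor TGFBR1. The type I receptor phosphorylates SMAD2 and SMAD3, which join SMAD4 and enter the nucleus. Activin A, a dimer of the Inhba product, reaches the same SMAD2 and SMAD3 through activin receptors. In macrophages TGF-β1 is known to dampen inflammatory output, and activin A is known as a product of macrophages exposed to LPS.

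Sequence upstream of the start site is shown for Inhba, which rose the most of the 10 genes, and for both receptor genes, which fell. Each run is the 250 bases before the RefSeq start on GRCm38 (mm10), read 5′ to 3′ on the strand of the gene, with CpG dinucleotides in capitals. The Inhba run lies at chr13:16011601-16011850 on the plus strand, the Tgfbr1 run at chr4:47352972-47353221 on the plus strand (the first of 2 starts), and the Tgfbr2 run at chr9:116175364-116175613 on the minus strand.
Inhba: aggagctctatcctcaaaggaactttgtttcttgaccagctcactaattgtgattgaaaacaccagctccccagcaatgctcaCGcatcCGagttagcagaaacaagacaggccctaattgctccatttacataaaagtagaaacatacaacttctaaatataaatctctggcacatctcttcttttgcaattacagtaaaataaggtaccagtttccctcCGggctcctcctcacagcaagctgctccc
Tgfbr1: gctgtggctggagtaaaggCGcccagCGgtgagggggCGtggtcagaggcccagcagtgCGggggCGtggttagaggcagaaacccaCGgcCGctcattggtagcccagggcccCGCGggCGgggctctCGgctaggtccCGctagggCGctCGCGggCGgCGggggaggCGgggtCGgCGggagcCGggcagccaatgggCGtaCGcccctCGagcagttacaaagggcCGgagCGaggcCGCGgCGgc
Tgfbr2: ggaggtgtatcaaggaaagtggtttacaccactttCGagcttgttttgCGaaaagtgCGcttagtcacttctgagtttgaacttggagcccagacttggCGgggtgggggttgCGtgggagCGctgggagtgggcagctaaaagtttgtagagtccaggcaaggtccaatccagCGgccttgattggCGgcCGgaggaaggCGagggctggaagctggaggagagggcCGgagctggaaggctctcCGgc

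The Inhba run held 3 CpG and was 43.2% G or C. The Tgfbr2 run held 12 CpG at 58.4% G or C and the Tgfbr1 run 29 CpG at 74.8%. The median over 27025 mouse promoters was 6 CpG, and 29.6%, 66.2% and 93.6% of them had fewer than Inhba, Tgfbr2 and Tgfbr1. These 3 runs were searched on both strands for the NF-κB consensus, the AP-1 motif TGANTCA, the cAMP response element TGACGTCA, the Smad box GTCTAGAC, the shorter Smad element CAGACA and the core of the interferon-stimulated response element. None held a match, while 7.01%, 6.87%, 1.62%, 0.174%, 17.1% and 3.04% of all 27025 promoters did, in that order. Among the other members with a promoter in the RefSeq table, the Tgfb1 run held 1 NF-κB consensus match, 140 bases before the start. The Tgfbi run held 1 match to the core of the interferon-stimulated response element, 194 bases before the start. The run of the second Tgfbr1 start, not shown, held 1 shorter Smad element, 203 bases before that start. The Inhba gene spans chr13:16011851-16031621, Tgfbr1 chr4:47353222-47414931, Tgfbr2 chr9:116084293-116175360, Tgfb1 chr7:25687002-25705077, Smad3 chr9:63646767-63757994, Ski chr4:155154075-155222592 and Tgfbi chr13:56609523-56639562 in GENCODE vM21. Smad2, Smad4 and Smad7 lie on chromosome 18. All 10 are protein-coding, and none of their exonic bases was shared with another annotated gene on either strand.

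The libraries held 9525979 to 12439960 reads on listed genes. Macrophage markers summed to between 16200 and 26400 CPM (read counts scaled to a common library size) in every library, with 7 of 7 listed. None of 4 NK cell and none of 5 erythroid markers was listed. For 6 lists the summed level at 0 hr did not overlap with that at 4 or 8 hr. The 2 of 5 T cell markers listed summed to 8.57 to 9.93 CPM at 0 hr and 1.55 to 2.90 CPM after LPS, 2 of 5 eosinophil markers to 15.3 to 18.5 CPM at 0 hr and 3.62 to 4.58 CPM at 8 hr, and 4 of 5 dendritic cell markers to 4.21 to 6.27 CPM at 0 hr and 2.44 to 3.96 CPM at 4 hr. The 5 of 5 markers of resident peritoneal macrophages summed to 49.3 to 90.2 CPM at 0 hr and 123 to 146 CPM at 8 hr, 5 of 6 B cell markers to 10.1 to 16.0 CPM at 0 hr and 19.2 to 22.1 CPM at 4 hr, and the 1 platelet marker listed of 4 to 0.307 to 1.01 CPM at 0 hr and 1.85 to 4.32 CPM at 8 hr. The 6 of 7 fibroblast markers overlapped, at 21.7 to 63.3 CPM at 0 hr, 41.8 to 124 CPM at 4 hr and 35.5 to 72.6 CPM at 8 hr. Their part in the results was not tested, and in bulk RNA fewer cells of a type and less RNA per cell cannot be told apart. The libraries of 3 groups stood apart from their partners. On the first component of the spread between replicates, which took 39.2% of it, WT 4 hr replicate 2, S513A 4 hr replicate 1 and S513A 8 hr replicate 1 scored 19.6 to 21.8, their partners the same values below 0, and the other 6 libraries between -4.12 and 4.12. Tgfb1, Tgfbr1, Smad3, Smad4 and Ski were higher in the positive library of all 3 pairs, by 0.10 to 1.71 on the log2 scale, whereas Smad2 differed by 0.03 or less on that scale.

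Per exonic kilobase, the 10 genes covered a wide range of levels at 0 hr. Tgfbi stood highest, with a mean over 4 libraries of 6.63 log2 CPM per kb (range 6.33 to 7.06), followed by Tgfb1 at 5.56, Tgfbr1 at 4.77, Ski at 4.34, Tgfbr2 at 4.08, Smad4 at 3.75, Smad2 at 2.75, Smad7 at 0.56, Smad3 at 0.10 and Inhba at -2.43. In that order Ski and Tgfbr2 overlapped in range, as did Smad7 and Smad3, and no other neighbours did. At 4 hr Tgfb1 and Tgfbi headed the order with overlapping ranges, Inhba was sixth with a mean of 3.02 log2 CPM per kb, and Smad3 was last at -2.27. At 8 hr Tgfbi was again the highest, with a mean of 7.70 log2 CPM per kb and no overlap with Tgfb1 at 5.82. Thus the target gene and the latent ligand gene were abundant throughout, and Smad3 and Smad7 were the scarcest of the group after LPS.

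**Figure D1:**
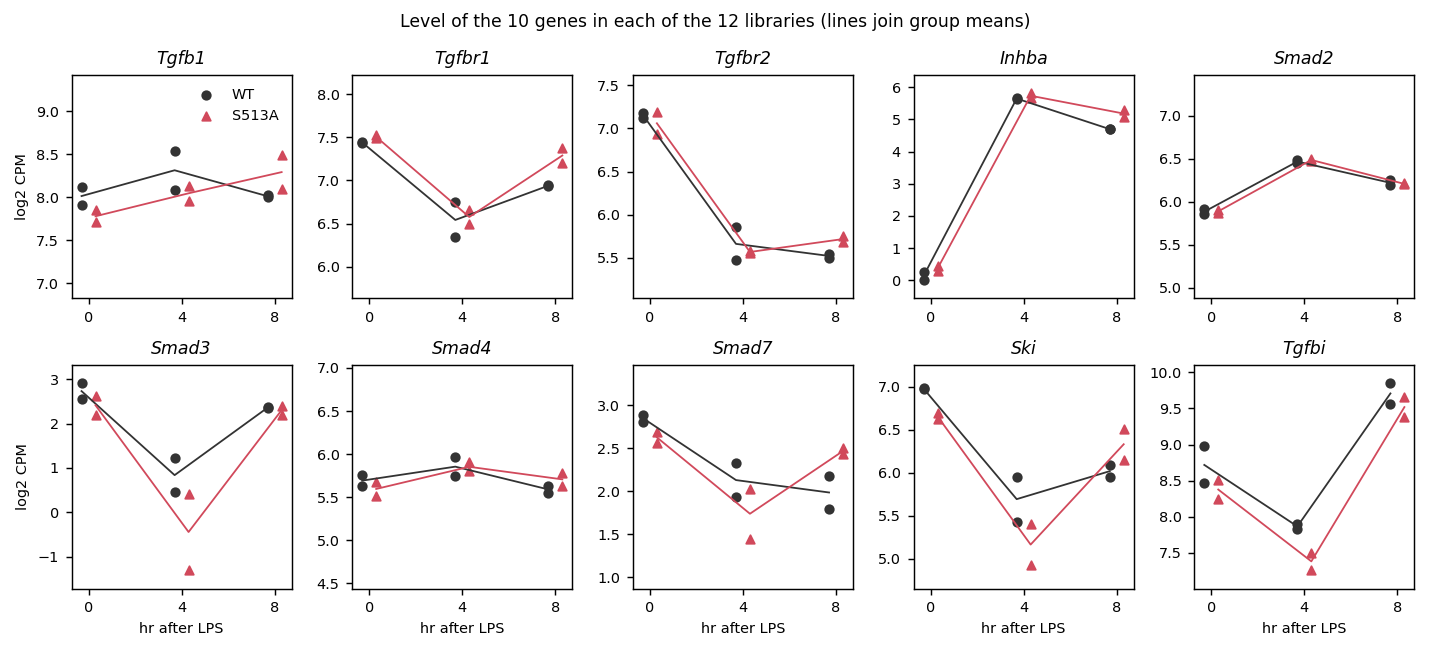
Level of each of the 10 genes in log2 CPM (vertical axis, own range per gene) at 0, 4 and 8 hr after LPS (horizontal axis); circles are WT libraries, triangles S513A libraries, 2 per group, and lines join the group means. Inhba goes from about 1 CPM to about 50 CPM at 4 hr, Tgfbr2 stays low at 8 hr, and Smad3 and Tgfbi dip at 4 hr.

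To ask how LPS changed these genes, 4 and 8 hr were each compared with 0 hr over both genotypes, and 8 hr with 4 hr. At 4 hr Inhba and Smad2 rose and Tgfbr1, Tgfbr2, Smad3, Smad7, Ski and Tgfbi fell, 8 of 10 genes, while Tgfb1 and Smad4 did not pass the test. At 8 hr Inhba, Smad2 and Tgfbi were above 0 hr and Tgfbr1, Tgfbr2, Smad7 and Ski below it, 7 of 10 genes. Between 4 and 8 hr Tgfbr1, Smad3, Ski and Tgfbi rose and Inhba and Smad2 fell, 6 of 10 genes. The background was high: 55.8% of all 11885 genes tested passed at 4 hr, 46.1% at 8 hr and 25.6% between 4 and 8 hr, at an adjusted p under 0.05. The median absolute log2 fold change was 0.92 over the 10 genes against 0.42 over all genes at 4 hr, and 0.44 against 0.33 at 8 hr. Within S513A at 8 hr it was lower than over all genes, 0.32 against 0.42. Both comparisons used the same 0 hr libraries, so they are not independent. With the first component of the replicate spread as a term, 10 and 8 genes passed at 4 and 8 hr. Of all genes 66.8% and 58.8% did so in that fit.

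Of the ligand genes, Inhba showed the largest change of the group. It was at 1.01 and 1.19 CPM in WT and 1.36 and 1.22 CPM in S513A at 0 hr, resting on 14 or 15 reads per library. At 4 hr it stood at 49.9 and 50.6 CPM in WT and 50.5 and 56.4 CPM in S513A. At 8 hr it stood at 26.2 and 25.8 CPM in WT and 33.9 and 39.0 CPM in S513A. The 3 time points did not overlap in either genotype, and the peak was at 4 hr. Its log2 fold change was 5.45 ± 0.10 (SE, 43.6-fold, adjusted p = 3.28e-11) at 4 hr and 4.69 ± 0.10 (25.9-fold, adjusted p = 1.88e-10) at 8 hr, with a fall of 0.75 ± 0.10 on the log2 scale from 4 to 8 hr (adjusted p = 4.18e-04).

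Tgfb1, by contrast, had group means within 0.53 log2 units of each other, while its replicates lay up to 0.45 apart. In WT its libraries held 277 and 241 CPM at 0 hr, 272 and 372 CPM at 4 hr and 260.1 and 256 CPM at 8 hr. In S513A they held 209 and 230.4 CPM at 0 hr, 281 and 248 CPM at 4 hr and 359.6 and 273 CPM at 8 hr. In WT each range after LPS overlapped that at 0 hr, and the S513A libraries after LPS were all above those at 0 hr. Over both genotypes the log2 difference was 0.28 (95% interval 0.02 to 0.55, adjusted p = 0.0676) at 4 hr and 0.26 (95% interval -0.01 to 0.52, adjusted p = 0.109) at 8 hr. Leaving out any 1 library gave 0.17 to 0.40 at 4 hr and 0.16 to 0.35 at 8 hr. Over all 26 fits, alternatives included, it ran from -0.09 to 0.44 at 4 hr and from -0.03 to 0.35 at 8 hr. The highest values, 0.44 and 0.35, were reached without the 3 libraries of negative score. The estimate for Tgfb1 thus depended on the libraries used and on the processing. With the first component of the replicate spread as a term, Tgfb1 passed at 4 hr (0.28, adjusted p = 9.16e-04) and at 8 hr (0.26, adjusted p = 0.00242).

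Both receptor genes fell, and they parted at 8 hr. Tgfbr2, which encodes the receptor that binds the ligand first, was at 139.8 and 145 CPM in WT and 122 and 146 CPM in S513A at 0 hr. At 4 hr its libraries held 44.2 and 57.8 CPM in WT and 46.9 and 47.8 CPM in S513A. At 8 hr they held 46.7 and 45.1 CPM in WT and 53.9 and 51.3 CPM in S513A. No library after LPS came near those at 0 hr. The log2 fold change was -1.50 ± 0.10 (2.82-fold lower, adjusted p = 2.47e-07) at 4 hr and -1.49 ± 0.10 (2.81-fold lower, adjusted p = 3.23e-07) at 8 hr, and the difference between 8 and 4 hr was 0.01 (95% interval -0.21 to 0.22).

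Tgfbr1, the type I receptor gene, held 174 CPM in both WT libraries and 179.8 and 184 CPM in S513A at 0 hr. At 4 hr it stood at 80.9 and 107 CPM in WT and 101 and 90.2 CPM in S513A. At 8 hr it stood at 122 and 123 CPM in WT and 166 and 148 CPM in S513A. The log2 fold change of -0.92 ± 0.09 (1.89-fold lower, adjusted p = 1.09e-05) at 4 hr shrank to -0.36 ± 0.09 (adjusted p = 0.00925) at 8 hr, with a rise of 0.56 ± 0.09 from 4 to 8 hr (adjusted p = 0.00168). The ratio of Tgfbr1 to Tgfbr2 within a library, in CPM per exonic kb, was 1.5 to 1.84 at 0 hr, 2.29 to 2.69 at 4 hr and 3.28 to 3.86 at 8 hr. These ranges, of 4 libraries each, did not overlap.

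The 3 Smad genes of the signalling complex moved in different ways. Smad2 was the most even of the 10 genes between replicates. It held 58.1 to 60.2 CPM in the 4 libraries at 0 hr, 87.7 to 90.5 CPM at 4 hr and 73.1 to 76.2 CPM at 8 hr, with no overlap. It rose by 0.59 ± 0.06 on the log2 scale at 4 hr (adjusted p = 1.58e-05) and was still 0.33 ± 0.06 above 0 hr at 8 hr (adjusted p = 0.00156). Smad4, whose product is shared by the TGF-β, activin and BMP branches, held 45.6 to 54.2 CPM at 0 hr, 53.5 to 62.5 CPM at 4 hr and 46.8 to 54.9 CPM at 8 hr. Its ranges overlapped, and the log2 difference was 0.21 (95% interval 0.02 to 0.40, adjusted p = 0.0564) at 4 hr and 0.00 (95% interval -0.18 to 0.19, adjusted p = 0.973) at 8 hr. Over all 26 fits, alternatives included, the Smad4 difference at 4 hr ran from 0.06 to 0.29. It was highest without the 3 libraries of negative score. With the first component of the replicate spread as a term, Smad4 passed at 4 hr (0.21, adjusted p = 0.0109).

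Smad3, the second transducer of the branch, was scarce and dipped at 4 hr. In WT it held 84 and 97 reads (5.89 and 7.50 CPM) at 0 hr, 15 and 25 reads (1.36 and 2.34 CPM) at 4 hr, and 54 and 53 reads (5.17 and 5.10 CPM) at 8 hr. In S513A it held 52 and 73 reads (4.61 and 6.17 CPM) at 0 hr, 13 and 3 reads (1.33 and 0.407 CPM) at 4 hr, and 61 and 42 reads (5.30 and 4.60 CPM) at 8 hr. Every library at 4 hr was below every library at 0 or 8 hr. The log2 fold change was -2.38 ± 0.33 (5.19-fold lower, adjusted p = 1.11e-04) at 4 hr, -0.24 (95% interval -0.97 to 0.49, adjusted p = 0.589) at 8 hr, and 2.14 ± 0.33 (adjusted p = 9.66e-04) from 4 to 8 hr. With reads pooled over libraries, 306 at 0 hr and 56 at 4 hr, the ratio of rates was 4.42 (exact 95% interval 3.32 to 5.99, counting error only). S513A 4 hr replicate 2 had only 3 Smad3 reads, and without it the change at 4 hr was -1.95. The ratio of Smad2 to Smad3, in CPM per exonic kb, was 4.88 to 8.24 at 0 hr, 23.6 to 140.0 at 4 hr and 8.76 to 10.2 at 8 hr, so the balance of the pair was far toward Smad2 at 4 hr in every library. The highest of these ratios was that of the library with 3 reads.

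**Figure D2:**
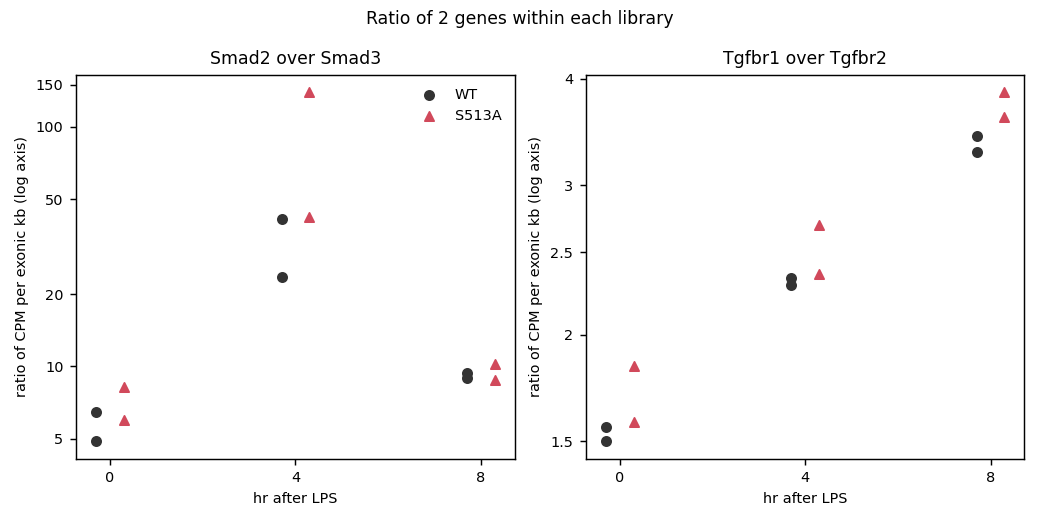
Ratio of Smad2 to Smad3 (left) and of Tgfbr1 to Tgfbr2 (right) within each library, in CPM per exonic kb on a log axis, against hr after LPS; circles are WT and triangles S513A libraries, 2 per group. The Smad ratio peaks at 4 hr, from 23.6 to 140.0, and the receptor ratio is higher at each later time point, reaching 3.28 to 3.86 at 8 hr.

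The genes of both inhibitors among the 10, normally a brake on the pathway, fell. Smad7, whose product blocks the receptor and is itself a TGF-β target, held 7.00 and 7.42 CPM in WT and 6.45 and 5.91 CPM in S513A at 0 hr. At 4 hr its libraries held 3.83 and 5.01 CPM in WT and 4.08 and 2.73 CPM in S513A, and at 8 hr 4.51 and 3.48 CPM in WT and 5.39 and 5.68 CPM in S513A. No library after LPS reached the range at 0 hr. Smad7 changed by -0.80 ± 0.17 on the log2 scale (1.74-fold lower, adjusted p = 0.00179) at 4 hr and -0.51 ± 0.17 (adjusted p = 0.0268) at 8 hr. The 8 hr call was lost when any 1 of 6 libraries at 0 or 8 hr was left out (-0.54 to -0.42).

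Ski, a repressor that binds SMAD proteins on DNA, held 125 and 127 CPM in WT and 103 and 98.4 CPM in S513A at 0 hr. At 4 hr it stood at 43.3 and 62.0 CPM in WT and 42.5 and 30.4 CPM in S513A, and at 8 hr at 68.1 and 61.8 CPM in WT and 91.2 and 71.2 CPM in S513A. The log2 fold change was -1.39 ± 0.14 (2.61-fold lower, adjusted p = 9.16e-06) at 4 hr and -0.64 ± 0.14 (1.56-fold lower, adjusted p = 0.00318) at 8 hr. From 4 to 8 hr Ski rose by 0.75 ± 0.14 (adjusted p = 0.00302), although WT 4 hr replicate 2 overlapped with the WT libraries at 8 hr. Its paralog Skil, named by the rule for pathway genes, moved the other way: it rose by 1.24 ± 0.09 at 4 hr (adjusted p = 6.94e-07) and 1.25 ± 0.09 at 8 hr (adjusted p = 8.72e-07). The log2 CPM of Skil minus that of Ski, read only for its change since it is not per length, went from between -0.71 and -0.29 at 0 hr to between 1.76 and 2.55 at 4 hr and between 1.15 and 1.51 at 8 hr.

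The target gene Tgfbi, which encodes a matrix protein that binds integrins and is induced by TGF-β in many cells, first fell and then rose. In WT its libraries held 503 and 352 CPM at 0 hr, 239 and 227 CPM at 4 hr and 922 and 759.6 CPM at 8 hr. In S513A they held 303 and 364 CPM at 0 hr, 181 and 153 CPM at 4 hr and 809.7 and 665 CPM at 8 hr. The 3 time points did not overlap in either genotype. Its log2 fold change was -0.92 ± 0.13 (1.90-fold lower, adjusted p = 1.27e-04) at 4 hr, 1.07 ± 0.13 (2.09-fold higher, adjusted p = 5.70e-05) at 8 hr and 1.99 ± 0.13 (3.98-fold higher, adjusted p = 7.98e-06) from 4 to 8 hr. It was the only one of the 10 genes called in opposite directions at 4 and 8 hr against 0 hr.

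**Figure D3:**
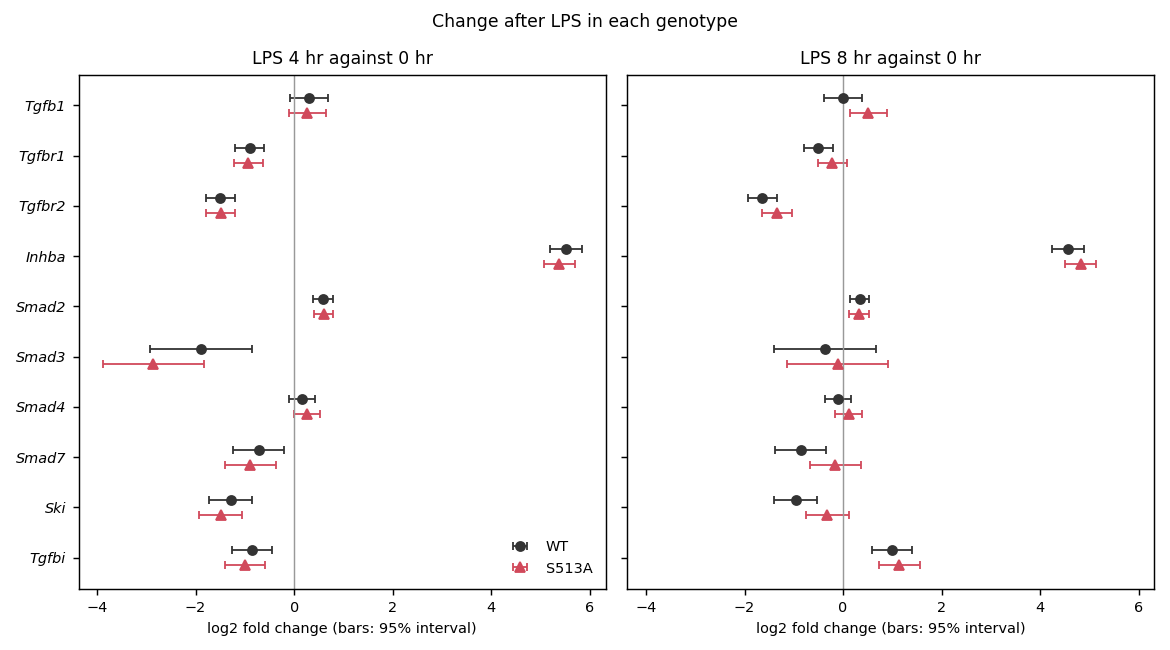
Log2 fold change (horizontal axis) of each of the 10 genes (rows) at 4 hr (left) and 8 hr (right) against 0 hr, in WT (circles) and S513A (triangles) PECs, 2 libraries per group; bars are 95% intervals. Inhba lies near 5 in both genotypes, and Tgfbi lies below 0 at 4 hr and above 0 at 8 hr.

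To compare the genotypes, the LPS response was first taken in each alone. At 4 hr the same 8 genes passed in WT and in S513A, in the same directions, where 41.3% and 43.2% of all genes passed. In WT Smad7 lost that call with quantile normalization (-0.56, adjusted p = 0.0632) and with only the libraries compared (-0.72, adjusted p = 0.0505). Without WT 4 hr replicate 1 the WT calls of Smad7 (-0.53) and Smad3 (-1.50) were both lost. Smad7 also lost its WT call without either WT 0 hr library (-0.76 and -0.68), and Smad3 without WT 0 hr replicate 2 (-1.72). In S513A Smad7 lost its call without S513A 4 hr replicate 2 (-0.60) and without S513A 0 hr replicate 1 (-0.82). Each of these fits left 1 library in a group. At 8 hr 7 genes passed in WT, where 34.3% of all genes did, and 5 in S513A, where 39.9% did. Inhba, Tgfbr2, Smad2 and Tgfbi passed in both. Smad2 lost the call in both with quantile normalization (0.18 in WT and 0.21 in S513A, adjusted p = 0.160 and 0.101). In S513A it also lost the call with only the libraries compared (0.32, adjusted p = 0.0506). Its call was lost too when any library of the genotype at 0 or 8 hr was left out (0.31 to 0.37 in WT, 0.30 to 0.34 in S513A). In S513A Tgfb1 passed as well, with a rise of 0.51 ± 0.17 (adjusted p = 0.0347) against -0.00 ± 0.17 in WT (adjusted p = 0.993). The Tgfb1 call in S513A was lost without S513A 8 hr replicate 1 (0.31), without either S513A 0 hr library (0.44 and 0.58) and with quantile normalization (0.30, adjusted p = 0.268). Tgfbr1, Smad7 and Ski passed in WT at 8 hr, at -0.50, -0.86 and -0.96, and not in S513A, at -0.22, -0.16 and -0.32. Tgfbr1 did pass in S513A with quantile normalization (-0.43, adjusted p = 0.0255). With the first component of the replicate spread as a term, Tgfbr1 and Ski passed in S513A (adjusted p = 0.0276 and 0.00261). Without WT 8 hr replicate 2 the WT changes were -0.51 for Tgfbr1 and -0.68 for Smad7. Without 1 of the WT 0 hr libraries they were -0.50 for Tgfbr1 and -0.91 or -0.82 for Smad7. Both genes lost their WT calls in these fits, which left 1 library in a group. These differences between genotypes were tested as an interaction, and by limma on the group means alone 0 of 10 genes passed it at 4 hr and 0 of 10 at 8 hr. Over all genes 0.0% passed at either time, and at an unadjusted p under 0.05 it was 0 and 1 of the 10 genes and 1.21% and 20.2% of all genes. The interaction at 8 hr was 0.64 for Ski (95% interval 0.02 to 1.25, adjusted p = 0.239), 0.71 for Smad7 (-0.03 to 1.44, adjusted p = 0.255) and 0.51 for Tgfb1 (-0.02 to 1.05, adjusted p = 0.254).

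S513A was then set against WT at each time point. None of the 10 genes passed at 0, 4 or 8 hr or in the mean of the time points by limma on the group means alone, where 0.0337%, 0.0168%, 0.0337% and 0.0673% of all genes did. At an unadjusted p under 0.05 the counts were 0, 3, 2 and 2 of 10 genes, against 7.98%, 7.01%, 12.5% and 6.71% of all genes, and voom weights also called 0. At 8 hr Inhba was 0.48 log2 units higher in S513A (95% interval 0.17 to 0.80, adjusted p = 0.395), with both S513A libraries above both WT libraries, and Tgfbr1 was 0.35 higher (0.06 to 0.65, adjusted p = 0.395). At 4 hr Tgfbi differed by -0.49 (-0.89 to -0.08), Ski by -0.53 (-0.96 to -0.09) and Smad3 by -1.28 (-2.31 to -0.25), each with adjusted p = 0.622. Without S513A 4 hr replicate 2 the Smad3 difference was -0.43, and leaving out any 1 library gave -0.79 to -0.27 for Ski. Smad2 had the narrowest intervals, -0.19 to 0.20 at 0 hr, -0.18 to 0.22 at 4 hr and -0.21 to 0.19 at 8 hr.

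These genotype counts depended on how the libraries that stood apart were treated. Without the 3 libraries of negative score 1, 1 and 3 of 10 genes passed at 0, 4 and 8 hr, where 10.4%, 2.99% and 25.3% of all genes did. The genes were Ski at 0 hr (-0.32, adjusted p = 0.0336), at 4 hr (-0.55, adjusted p = 0.0351) and at 8 hr (0.49, adjusted p = 0.00553), Tgfb1 at 8 hr (0.48, adjusted p = 0.00917) and Tgfbr1 at 8 hr (0.43, adjusted p = 0.00482). The interaction at 8 hr then passed for Ski, Tgfb1 and Tgfbr1, 3 of 10 genes, where 32.9% of all genes passed. Without the 3 libraries of positive score 1, 0 and 0 genes passed at 0, 4 and 8 hr, and 0 in the interaction at 8 hr, where 10.5%, 0.0%, 0.0168% and 7.21% of all genes did. With all 12 libraries and the first component of the replicate spread as a term, 1, 2 and 4 genes passed at 0, 4 and 8 hr and 2 in the interaction at 8 hr, where 13.2%, 8.9%, 18.8% and 28.5% of all genes did. They were Ski at each time, Smad3 at 4 hr, and Inhba, Tgfb1 and Tgfbr1 at 8 hr, with adjusted p from 0.0036 to 0.0377, and Ski and Tgfb1 in the interaction. That component was estimated from the spread of these same libraries.

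**Figure D4:**
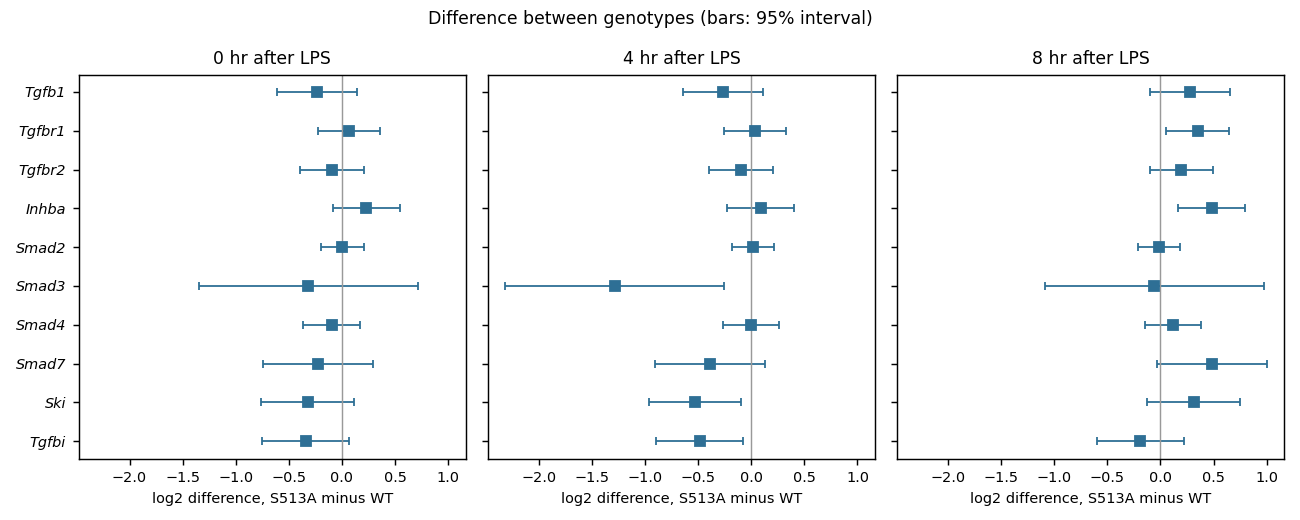
Log2 difference, S513A minus WT (horizontal axis), of each of the 10 genes (rows) at 0, 4 and 8 hr after LPS, 2 libraries per group; bars are 95% intervals and the line marks no difference. Smad2 has the narrowest intervals and Smad3 the widest, and no difference passed the adjusted threshold in this fit of the group means alone.

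Around these 10 genes, a list of 100 genes of the wider pathway, the 10 included, held 80 that were tested. At 4 hr 33 of the 80 rose and 15 fell, and at 8 hr 30 rose and 12 fell, so 60.0% and 52.5% passed, close to the background of 55.8% and 46.1%. Between 4 and 8 hr 12 rose and 20 fell, 40.0% against a background of 25.6%, and without the 10 members 26 of 70 passed, 37.1%. In the list of ligand genes 5 of 7 rose and 1 fell at 4 hr. Bmp6, a ligand of the BMP branch, had 1 to 3 reads per library at 0 hr and 5 to 28 at 8 hr, a ratio of pooled rates of 10.2 (exact 95% interval 5.11 to 23.2, counting error only). Gdf15, a stress-induced distant member of the family, rose by 1.35 ± 0.10 at 4 hr (adjusted p = 1.10e-06). Among receptor genes 3 of 11 rose and 2 fell at 4 hr, and 4 rose and 3 fell at 8 hr. Acvr1b, the type I receptor gene of activin, rose by 1.34 ± 0.10 at 4 hr (adjusted p = 7.47e-07), while Eng, a co-receptor gene, rose by 1.59 at 8 hr (adjusted p = 5.32e-06) and Acvr1 by 0.81 at 4 hr (adjusted p = 2.61e-04).

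Of 10 tested genes that hold or release latent TGF-β, 6 rose and 1 fell at 4 hr, when 3461 of all genes rose and 3174 fell. At 8 hr 4 rose and 1 fell, when 2917 of all genes rose and 2567 fell. Between 4 and 8 hr 1 rose and 4 fell, when 1522 of all genes rose and 1521 fell. Itgb8, the integrin subunit gene whose product frees TGF-β from its latent complex, rose by 5.20 ± 0.14 at 4 hr (36.8-fold, adjusted p = 3.50e-10), from 9 to 16 reads per library at 0 hr to 286 to 454 at 4 hr, and was still 3.83 above 0 hr at 8 hr. Mmp14, a membrane protease gene, rose by 2.05 at 8 hr (adjusted p = 3.47e-08) and Thbs1, another activator gene, by 1.20 at 4 hr (adjusted p = 3.57e-05). Dcn, the proteoglycan gene on the list of ligand antagonists, rose by 1.34 at 8 hr (adjusted p = 2.81e-04) on 29 to 37 reads per library at 0 hr. Dcn is also one of the fibroblast markers whose summed level is given above, and the part of fibroblasts in its rise was not tested.

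The inhibitors beside Smad7 were split. Pmepa1, which encodes a membrane protein that sequesters SMAD2 and SMAD3, rose by 2.81 ± 0.21 at 4 hr (7.03-fold, adjusted p = 1.01e-06). Smad6, the inhibitory Smad of the BMP branch, was 1.43 ± 0.21 above 0 hr at 8 hr (adjusted p = 2.31e-04) but not at 4 hr (-0.36, adjusted p = 0.167), and the pseudoreceptor gene Bambi changed by -1.13 at 8 hr (adjusted p = 1.32e-04). Of 7 Smad corepressor genes 4 rose and 1, Ski, fell at 8 hr. Besides Skil, Hdac1 rose by 0.77 at 4 hr (adjusted p = 2.30e-04) and Tgif1 by 0.50 at 8 hr (adjusted p = 1.02e-04). Among the genes of ligases, phosphatases and proteases that act on Smads or receptors, 3 of 10 rose and 3 fell at 4 hr. The ligase gene Wwp1 changed by -0.95 at 8 hr (adjusted p = 5.16e-06), the phosphatase gene Ppm1a by 0.54 at 4 hr (adjusted p = 1.18e-04) and the deubiquitinase gene Usp9x by 0.54 at 4 hr (adjusted p = 0.00444). Of 5 tested anchor and coactivator genes 1 rose and 1 fell at 4 hr, and Zfyve16 changed by 0.38 (adjusted p = 0.00161). Of 5 receptor-regulated and common Smad genes 1 rose and 1 fell at 4 hr, both of them members described above, and 1 rose at 8 hr. The background for each of these lists was 55.8% of all genes at 4 hr and 46.1% at 8 hr.

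Target genes went both ways. Of 17 tested, 8 rose and 4 fell at 4 hr (70.6%) and 8 rose and 3 fell at 8 hr (64.7%). Of all genes 55.8% and 46.1% passed at these times. Tgfbi is counted among those that fell and then rose. The cell cycle inhibitor genes Cdkn1a and Cdkn2b rose by 1.92 at 4 hr (adjusted p = 7.70e-09) and by 1.63 at 8 hr (adjusted p = 2.68e-04). None of the 80 genes passed between the genotypes at 0, 4 or 8 hr by limma on the group means alone. Before adjustment 6, 10 and 11 of the 80 had p under 0.05, against 7.98%, 7.01% and 12.5% of all genes.

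**Figure D5:**
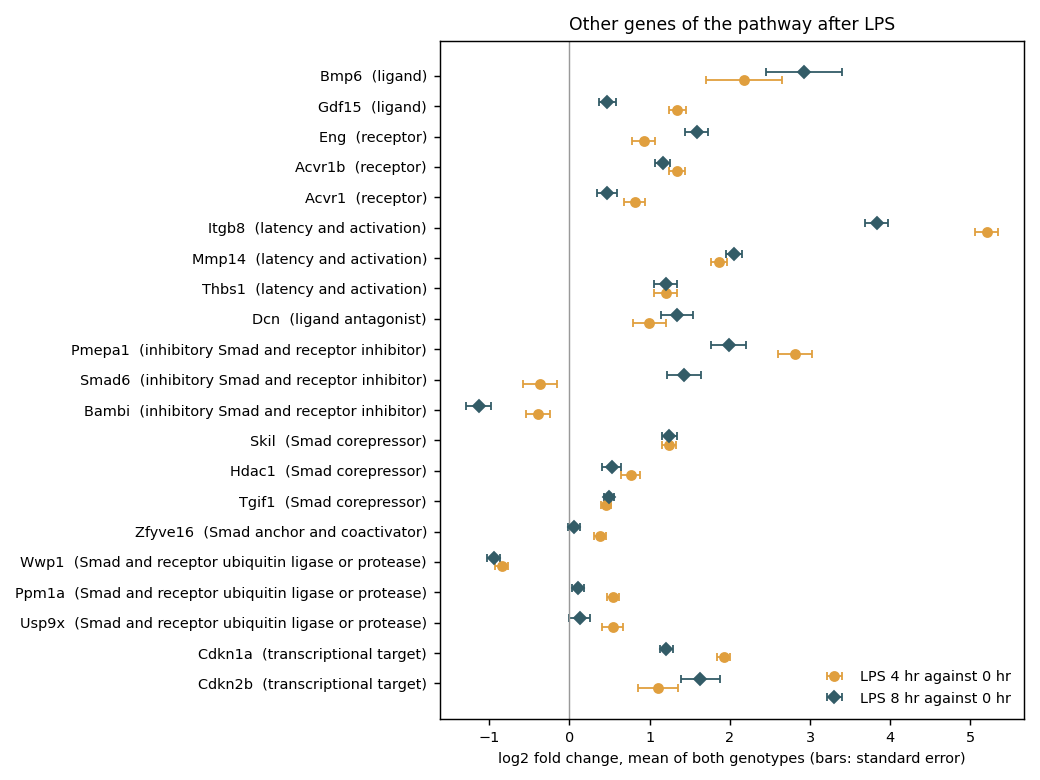
Log2 fold change (horizontal axis, mean of both genotypes, 4 libraries per time point) of the 21 other pathway genes reported (rows, with the list each belongs to) at 4 hr (circles) and 8 hr (diamonds) against 0 hr; bars are standard errors. Itgb8 lies farthest to the right, at 5.20 at 4 hr, and Wwp1 and Bambi lie below 0.

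The patterns of Inhba and Smad3, the 2 members with the widest range of group means (5.60 and 3.18 log2 units), were matched against all tested genes by Pearson correlation over the 6 group means, as a description. The 5 genes closest to Inhba were Top1, Rab10, Mx1, Cflar and Slc3a2, with r from 0.9993 to 0.9998, and 249 genes had r above 0.99. The 5 closest to Smad3 were Usp20, Impact, Fbxl6, Fads1 and Inpp5d, with r from 0.991 to 0.997, and 7 genes had r above 0.99. The range of group means of these matches differed from that of the member, from 1.18 to 7.24 log2 units for Inhba and from 0.45 to 1.83 for Smad3. The 6 points cover only 3 time points.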

How the data were processed

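PolyA RNA from 12 libraries of PECs was sequenced. Per the labels and the study's methods, the authors mapped paired reads to mm10 with HISAT2 and counted them per gene with featureCounts 1.6.3 (unstranded), and the deposited values are log2 CPM. Each was a whole read count plus 0.5 over an effective library size (largest departure from a whole read 0.00129). The annotation and the program for normalization are not given in the sources used here. Genes at 1 CPM or more in at least 2 libraries were fitted with limma 3.58.1 in R 4.3.3 (a mean per group, variance trend, two-sided moderated test, Benjamini-Hochberg adjustment over 11885 genes, threshold 0.05), with both genotypes weighted equally for LPS. The script was tested on simulated data. All 10 members are named, as are up to 3 other genes per pathway list called in the same direction in both genotypes; 1 gene that this rule named is counted in its list and not reported here. Members and lists were chosen with earlier results of these data known. Exonic lengths are from GENCODE vM21 and promoters from RefSeq (GRCm38.p6). A floor of 3 reads was worked out per library as a reference only, and no value was raised to it or removed by it before the fits. Intervals of pooled reads cover counting error only. Alternatives changed the filter, scaling, prior, weights, libraries and terms.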

Additional observations from a re-analysis of the deposited data

How the results depend on the processing

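With all 12 libraries the counts at 4 hr, 8 hr and between them were 8, 7 and 6 of 10 genes. Leaving out 1 library left 1 library in a group, so effect sizes are given for those fits. They ran from -0.60 to -0.42 for Smad7 at 8 hr and from -0.28 to -0.25 for Smad2 between 4 and 8 hr. Within S513A the change of Inhba from 4 to 8 hr was -0.55 with all libraries and -0.45 without S513A 8 hr replicate 1. With the first component of the replicate spread as a term, 1, 2 and 4 genes passed between the genotypes at 0, 4 and 8 hr and 2 in the interaction at 8 hr, while over all genes the counts went from 4, 2, 4 and 0 to 1569, 1058, 2231 and 3389. In that fit 8 genes passed in WT and 8 in S513A between 4 and 8 hr, where 35.0% and 42.9% of all genes did, against 2 and 5, where 14.2% and 18.3% did. With only the libraries compared, 1 gene (Ski) passed between the genotypes at 0 hr, where 693 of all genes did, and 3 passed in S513A between 4 and 8 hr, where 5.01% did. Leaving out the libraries that stood apart was an alternative chosen after seeing the data. It left 1 library in each affected group, and its effect sizes are given above. The cause of these shifts was not tested. A replicate block left 8, 7, 6 and 0 calls in the LPS comparisons and at 0 hr between genotypes and changed no call on the 10 genes. Whether replicate numbers pair the libraries is not given in the sources used here. The correlation of their differences between time points was -0.098 to 0.081 in WT and 0.087 to 0.417 in S513A. It was highest between S513A 4 hr and S513A 8 hr, and with so few libraries it cannot settle the pairing. At 8 hr Smad7 lost its call with quantile normalization too. Smad3 was below the filter of a mean of 5 CPM and was not tested there. Its depth, down to 3 reads, limits its intervals. No called change reversed under the alternatives run. With 2 libraries per group no outlier could be tested.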

Other observations

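Values of BMP branch genes are given here, named after they were seen, at 4 hr and 8 hr against 0 hr on the log2 scale. The receptor-regulated transducer genes Smad1 (0.22 and 0.06, adjusted p = 0.0925 and 0.694) and Smad5 (0.13 and 0.17, adjusted p = 0.300 and 0.208) did not pass at either time. Among receptor genes, Bmpr1a (0.25 and -0.18, adjusted p = 0.214 and 0.389) and Bmpr2 (0.14 and -0.02, adjusted p = 0.456 and 0.944) did not pass, Acvr1 rose at both times (0.81 and 0.46, adjusted p = 2.61e-04 and 0.0114), and Acvrl1 rose at 8 hr (0.43, adjusted p = 0.0101) and was at 0.27 at 4 hr (adjusted p = 0.0668). Of the target genes that encode inhibitors of helix-loop-helix factors, Id1 fell at 4 hr (-1.36 ± 0.38, adjusted p = 0.0109) and was at -0.86 at 8 hr (adjusted p = 0.0913). Id3 was at -0.19 at 4 hr (adjusted p = 0.167) and fell at 8 hr (-0.74 ± 0.11, adjusted p = 2.31e-04), and Id2 was at -0.28 and 0.15 (adjusted p = 0.0755 and 0.356). The ligand gene Bmp2 rose at both times, by 0.69 ± 0.23 (adjusted p = 0.0230) and 0.82 ± 0.23 (adjusted p = 0.0118).

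The genes of the proteins that tether latent TGF-β to the cell surface, also named after their values were seen, were called in opposite directions at 4 hr but not at 8 hr. Nrros, which anchors latent TGF-β1 on myeloid cells, was at -0.62 ± 0.07 at 4 hr (adjusted p = 1.44e-05) and -0.40 ± 0.07 at 8 hr (adjusted p = 4.84e-04), while Lrrc32, which does so on regulatory T cells and platelets, was at 0.63 ± 0.16 at 4 hr (adjusted p = 0.00574) and -0.24 ± 0.16 at 8 hr (adjusted p = 0.246). The 1 listed platelet marker was at 0.307 to 1.01 CPM at 0 hr, 0.935 to 3.04 CPM at 4 hr and 1.85 to 4.32 CPM at 8 hr. The 2 listed T cell markers summed to 8.57 to 9.93 CPM at 0 hr, 1.56 to 2.90 CPM at 4 hr and 1.55 to 2.00 CPM at 8 hr. The part of either cell type in the Lrrc32 values was not tested. Tgfb2, the second TGF-β ligand gene, was at 1.07 ± 0.26 at 4 hr (adjusted p = 0.00514) and at -0.34 ± 0.26 at 8 hr (adjusted p = 0.332). Furin, whose protease cuts the TGF-β precursor, was at 0.62 ± 0.13 at 4 hr (adjusted p = 0.00194) and 0.12 ± 0.13 at 8 hr (adjusted p = 0.491).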
